A study of Mus musculus with 6 samples.

Results

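The 10 genes described here make or regulate melanin. They were taken by name from a table of 20938 genes, as genes of melanin synthesis, of the melanosome and of the melanocyte lineage. The naming rule used no threshold on values, but the genes were chosen with earlier results of these data known. All 10 were in the table and all 10 were among the 11241 genes tested. RNA had been sequenced from whole tumours that B16F10 cells, a pigmented mouse melanoma line, formed subcutaneously on the left hind leg of male C57BL/6 mice. Mice were 6 weeks old when the cells were injected in 200 µL of saline, and tumours were collected on day 19. There were 3 tumours of cells overexpressing YKL-40, a secreted chitinase-like protein, and 3 control tumours. The labels give all 6 libraries the genotype WT. They name neither the vector and the species of the YKL-40 sequence, nor whether the cells were a clone or a pool, nor whether each library was a separate mouse. Where the libraries of a group were technical repeats, p-values would measure technical spread.

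Melanin is made in the melanosome, an organelle related to the lysosome. Tyrosinase (Tyr) oxidises tyrosine, the step that limits pigment synthesis, and the related enzymes Dct and Tyrp1 act on later intermediates of eumelanin. Pmel forms the fibrils on which melanin is laid down, Mlana is a melanosomal membrane protein also known as MART-1, and Slc45a2 and Oca2 are membrane transport proteins that keep the melanosome fit for tyrosinase. Mitf is the basic helix-loop-helix transcription factor of the lineage, Sox10 is an upstream regulator of Mitf, and Mc1r is the melanocortin receptor that raises cAMP. Mitf is known to bind CATGTG motifs, within a longer element called the M-box, in promoters of pigment genes.

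Promoter windows were at hand for 6 of the 10 genes, from RefSeq on GRCm38.p6, each running from 250 bases before to 50 bases after an annotated start. Of the 8 windows of these genes, 5 held CATGTG on either strand (Tyr, Tyrp1, Dct, Mc1r and Oca2), and the 3 windows of Mitf did not. Among all 32851 windows of this length 14.2% held it, and 8.32% of the 11584 windows of tested genes did. The longer TCATGTG, which contains it, was in the windows of Tyr, Tyrp1, Dct and Mc1r. It was in 3.77% of all windows and 2.05% of those of tested genes. CACGTG, which reads the same on both strands, was in 0 of the 8 windows, 7.15% of all windows and 10.1% of those of tested genes. Sequences like those that Sox proteins bind were also searched on both strands. One of them, ACAAAG, was in 3 of the 8 windows (Tyrp1, Dct and Oca2), 18.7% of all windows and 13.5% of those of tested genes. Another, ACAATG, was in 1 of the 8 windows (Dct), 12.6% of all windows and 7.21% of those of tested genes. Shown are the windows of the 3 enzymes, which share an M-box-like stretch, and of Mc1r, the receptor. They are written 5′ to 3′ on the strand of the gene, with CATGTG or its reverse complement CACATG in capitals. Tyr lies on the minus strand (chr7:87493463-87493762), Tyrp1 on the plus strand (chr4:80833963-80834262), Dct on the minus strand (chr14:118052197-118052496) and Mc1r on the plus strand (chr8:123406832-123407131).
Tyr: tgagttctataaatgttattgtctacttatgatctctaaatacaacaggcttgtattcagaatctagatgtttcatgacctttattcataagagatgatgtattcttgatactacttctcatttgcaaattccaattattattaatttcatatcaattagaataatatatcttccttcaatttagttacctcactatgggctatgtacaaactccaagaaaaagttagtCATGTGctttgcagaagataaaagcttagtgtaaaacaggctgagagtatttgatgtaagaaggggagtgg
Tyrp1: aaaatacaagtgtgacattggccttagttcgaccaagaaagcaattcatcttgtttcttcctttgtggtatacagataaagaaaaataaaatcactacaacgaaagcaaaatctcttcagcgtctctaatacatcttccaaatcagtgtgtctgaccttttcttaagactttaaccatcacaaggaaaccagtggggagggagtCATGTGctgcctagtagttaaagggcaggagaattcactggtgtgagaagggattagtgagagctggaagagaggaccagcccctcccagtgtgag
Dct: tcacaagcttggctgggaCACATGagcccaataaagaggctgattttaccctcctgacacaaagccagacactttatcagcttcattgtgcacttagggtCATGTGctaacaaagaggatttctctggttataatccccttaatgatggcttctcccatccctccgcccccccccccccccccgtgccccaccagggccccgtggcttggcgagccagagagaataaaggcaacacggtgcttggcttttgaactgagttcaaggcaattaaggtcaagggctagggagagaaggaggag
Mc1r: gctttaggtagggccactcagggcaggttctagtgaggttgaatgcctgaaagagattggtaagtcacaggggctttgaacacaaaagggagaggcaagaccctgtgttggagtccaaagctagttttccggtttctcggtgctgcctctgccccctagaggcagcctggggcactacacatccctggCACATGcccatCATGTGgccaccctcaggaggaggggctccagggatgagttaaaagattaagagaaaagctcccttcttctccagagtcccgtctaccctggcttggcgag
With 3 bases on either side, the match read AGTCATGTGCTT in Tyr, AGTCATGTGCTG in Tyrp1 and GGTCATGTGCTA in Dct. These began 21, 46 and 150 bases before the start. A match of letters is a description and does not show binding.

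Values are FPKM, fragments scaled to transcript length and library depth, so levels of different genes can be set side by side. Summed over all genes, the libraries held 468605 to 490955 FPKM with YKL-40 and 469464 to 479586 FPKM in controls. Read totals are unknown. Relative to the first control, estimated depths were 0.949 to 1.20 with YKL-40 and 1 to 1.33 in controls. The first control was set at 1. In each other library only 18 to 35 of 651 to 791 ratios lay at the most common value, so the depths are rough. Chil1, the mouse gene of YKL-40, was at 0 FPKM in all 3 YKL-40 libraries and at 0.0644, 0 and 0.0242 FPKM in controls (exact two-sided permutation p = 0.4, where 3 against 3 libraries allow no less than 0.1). Reads of a non-mouse or recoded sequence need not map to this gene, so these values do not settle whether YKL-40 was overexpressed, and the groups rest on the labels. All 10 genes reached at least 18.1 FPKM in every library. This describes the genes chosen and is not a separate check of the tumours' identity.

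None of the 10 pigment and lineage genes passed the test between YKL-40 and control tumours. The test was limma on log2(FPKM + 1), with Benjamini-Hochberg adjustment over all 11241 genes and a threshold of 0.05. It called 49 genes, or 0.436% of those tested (0.365% higher and 0.0712% lower), and 0 of the 10. At an unadjusted p under 0.05 there was 1 of the 10, Pmel, against 18.0% of all tested genes (8.71% higher and 9.24% lower). The groups did not overlap for 1 of the 10, again Pmel, against 24.4% of all tested genes (10.3% higher and 14.2% lower). Changes ran from -0.27 for Dct to 0.45 for Oca2, with 4 of the 10 above 0 and a median of -0.02, beside a median of -0.04 over all tested genes. The sum of the 10 genes was 8743, 10894 and 10369 FPKM in the YKL-40 libraries and 9635, 10221 and 8730 FPKM in the control libraries. That was 1.78%, 2.32% and 2.20% of all FPKM with YKL-40 and 2.05%, 2.13% and 1.82% in controls. The sums overlapped, and their means differed 1.05-fold.

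**Figure D1:**
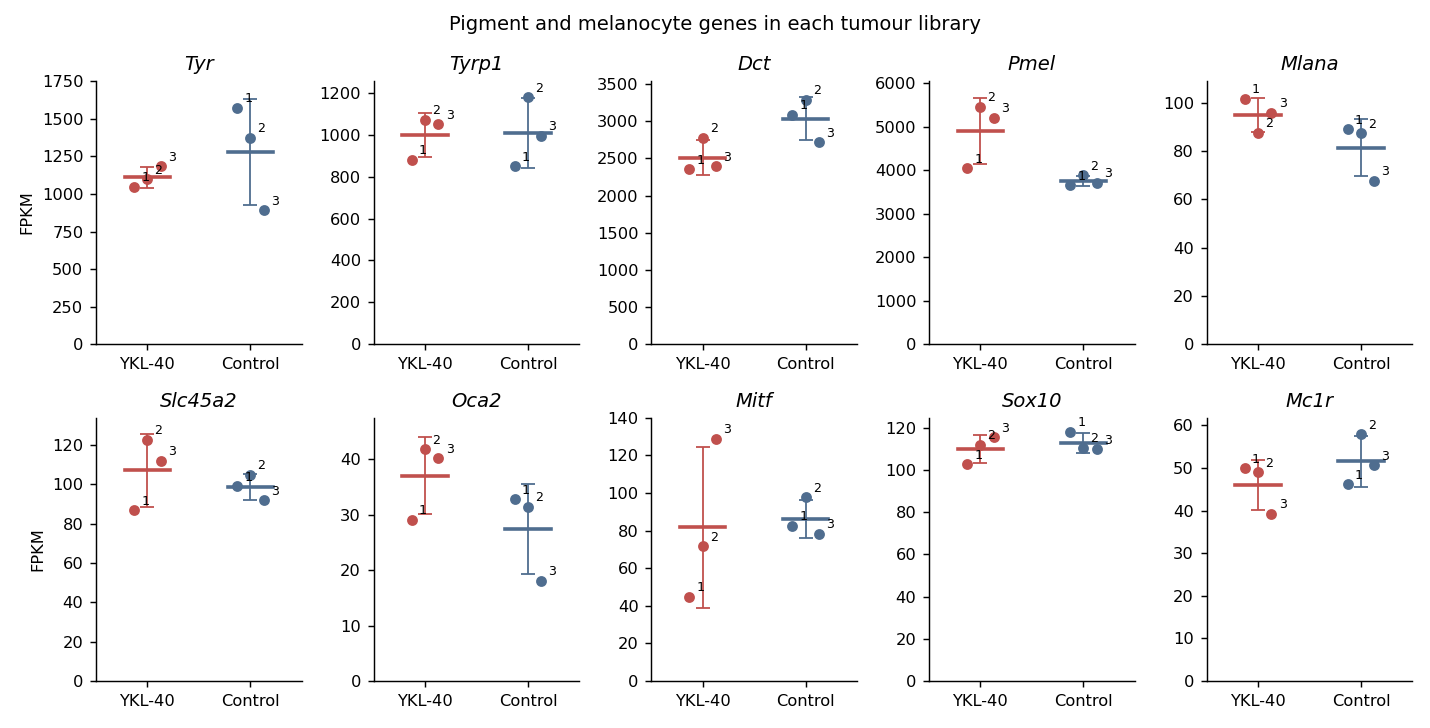
FPKM of each of the 10 genes (vertical axes, starting at 0) in the 3 YKL-40 and 3 control libraries. Points are libraries with their replicate number, and bars are mean and SD. The groups are apart for Pmel and overlap for the other 9 genes, and the YKL-40 libraries are spread widely for Mitf, from 44.9 to 128.9.

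Tyrosinase was the enzyme that varied most among the controls. Tyr (chromosome 7, 87424771 to 87493512, mm10) had 1048, 1099 and 1185 FPKM in the YKL-40 libraries and 1574, 1374 and 892 FPKM in the control libraries. All 3 YKL-40 libraries lay inside the control range, with the third control lowest of the 6 libraries. The means were 1111 ± 69.2 FPKM with YKL-40 and 1280 ± 351 FPKM in controls (SD, n = 3 each). The change was -0.17 ± 0.20 (log2, SE; limma adjusted p = 0.704), with a 95% interval from -0.65 to 0.31. Without the first control the value was 0.0026, so its sign rested on that library.

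Tyrp1, which stabilises tyrosinase and acts late in eumelanin synthesis, differed least between the groups. It lies on chromosome 4, 80834123 to 80851736. Its levels were 880, 1072 and 1051 FPKM with YKL-40, against 850, 1180 and 995 FPKM in controls. Both the lowest and the highest of the 6 values were controls. The change was -0.0031 ± 0.15 (log2, SE; limma adjusted p = 0.993), with a 95% interval from -0.35 to 0.34.

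Dct, the dopachrome tautomerase, had lower values in YKL-40 tumours that did not pass the test. Dct (chromosome 14, 118012790 to 118052246) had 2351, 2778 and 2394 FPKM with YKL-40, against 3087, 3287 and 2717 FPKM in controls. The groups overlapped only through the second YKL-40 library, which lay above the third control. The means were 2507 ± 235 and 3030 ± 289 FPKM (YKL-40 and control; SD, n = 3 each). The change was -0.27 ± 0.12 (log2, SE; limma unadjusted p = 0.0579, adjusted p = 0.294), with a 95% interval from -0.56 to 0.01.

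Among the melanosome proteins, Pmel was the gene whose groups did not overlap. Pmel (chromosome 10, 128695888 to 128720238) had 4049, 5461 and 5207 FPKM in the YKL-40 libraries and 3656, 3890 and 3710 FPKM in the control libraries. Each YKL-40 library was above each control, and the first YKL-40 library by the smallest margin. The means were 4906 ± 753 FPKM with YKL-40 and 3752 ± 122 FPKM in controls (SD, n = 3 each), a ratio of 1.31. The change was 0.38 ± 0.14 (log2, SE; limma unadjusted p = 0.0275, adjusted p = 0.222), with a 95% interval from 0.05 to 0.70. Its value stayed above 0 in each of the 18 alternative fits, from 0.27 to 0.51, and it passed in 1 of them, with array quality weights (adjusted p = 0.0469), a fit that called 1111 genes. Over the alternatives its adjusted p ran from 0.0469 to 0.949. The unadjusted p was under 0.05 in 9 of the 18. It was not under 0.05 when any library other than the first YKL-40 library was left out (limma unadjusted p = 0.0518 to 0.109) or with the replicate number as a block (unadjusted p = 0.0506). The limma fits without a filter, with the macrophage covariate and with the skeletal muscle covariate gave an unadjusted p of 0.234, 0.317 and 0.181. Without the first YKL-40 library it was 0.00105. The summed macrophage and muscle markers each did not overlap between the groups, so the covariate fits cannot separate marker level from group. In the GENCODE annotation 34 of the 2292 exonic bases of Pmel are shared with Cdk2 and 105 with Dgka, both on the opposite strand. The TruSeq v2 kit named in the labels is known not to mark strand, so reads there cannot be assigned. Cdk2, the cell cycle kinase, had 435, 445 and 418 FPKM with YKL-40, against 342, 415 and 369 FPKM in controls, and Dgka stayed under 1 FPKM in all 6 libraries.

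Mlana, on chromosome 19 (29697541 to 29708447), had 101.6, 87.6 and 95.9 FPKM with YKL-40, against 89.0, 87.4 and 67.8 FPKM in controls. The groups overlapped, with the third control standing lowest. The change was 0.23 ± 0.13 (log2, SE; limma adjusted p = 0.395), with a 95% interval from -0.07 to 0.53. Slc45a2, on chromosome 15 (11000721 to 11029233), had 86.7, 122.5 and 111.9 FPKM with YKL-40, against 99.0, 104.8 and 91.7 FPKM in controls. Here the YKL-40 libraries took both the lowest and the highest of the 6 values. The change was 0.11 ± 0.14 (log2, SE; limma adjusted p = 0.728).

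Oca2 had the largest change of the 10 with all 6 libraries in the fit, and a wide error. It encodes the melanosomal membrane protein that is mutant in pink-eyed dilution mice (chromosome 7, 56239593 to 56536518). Its levels were 29.1, 41.8 and 40.3 FPKM with YKL-40, against 32.8, 31.5 and 18.1 FPKM in controls. The first YKL-40 library lay within the control range and the third control was lowest. The change was 0.45 ± 0.24 (log2, SE; limma adjusted p = 0.377), with a 95% interval from -0.12 to 1.01, which reaches up to a 2.02-fold higher level. Without the third control the change was 0.18, smaller in size than those of Tyr, Pmel, Dct and Mitf in that fit, and without the first YKL-40 library it was 0.61.

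Mitf, the lineage transcription factor, was spread widely among the YKL-40 libraries. Mitf (chromosome 6, 97807002 to 98021360) had 44.9, 71.6 and 128.9 FPKM with YKL-40, against 82.6, 97.7 and 78.3 FPKM in controls. The first YKL-40 library was the lowest of the 6 and the third the highest. The highest value was 2.87 times the lowest with YKL-40 and 1.25 times in controls. The coefficient of variation was 52.5% with YKL-40 and 11.9% in controls, and the 52.5% was the highest of any of the 10 genes in either group. The change was -0.20 ± 0.34 (log2, SE; limma adjusted p = 0.796), with a 95% interval from -0.99 to 0.59. It was 0.16 without the first YKL-40 library and -0.59 without the third. Mitf has several promoters, and how its transcripts were merged into 1 value is not stated, so any part of that step in the spread was not tested.

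The other 9 genes did not show the spread of Mitf. Across the YKL-40 libraries the highest value was 1.12 to 1.44 times the lowest for each of these, and Tyr and Tyrp1 had ratios of 1.13 and 1.22. Relative to Sox10 in the same library, Mitf stood at 0.436, 0.640 and 1.12 with YKL-40, against 0.699, 0.883 and 0.713 in controls. These ratios are not affected by library scaling, and they overlapped.

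Sox10, the neural crest transcription factor, had the narrowest interval of the 10. Sox10 (chromosome 15, 79154913 to 79164490) had 102.8, 112.0 and 115.5 FPKM with YKL-40, against 118.2, 110.7 and 109.8 FPKM in controls. The 6 values interleaved, with coefficients of variation of 5.97% with YKL-40 and 4.07% in controls. The change was -0.04 ± 0.09 (log2, SE; limma adjusted p = 0.858), with a 95% interval from -0.24 to 0.17, or 0.844-fold to 1.13-fold. Mc1r, the receptor for melanocyte-stimulating hormone (chromosome 8, 123407082 to 123410744), had 49.9, 49.0 and 39.3 FPKM with YKL-40, against 46.2, 57.9 and 50.6 FPKM in controls. The third YKL-40 library was lowest and the groups otherwise overlapped. Its change was -0.16 ± 0.13 (log2, SE; limma adjusted p = 0.556). Gm38092, a gene model on the opposite strand, covers 653 of the 3638 exonic bases of Mc1r in GENCODE, so reads there cannot be assigned to a strand.

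**Figure D2:**
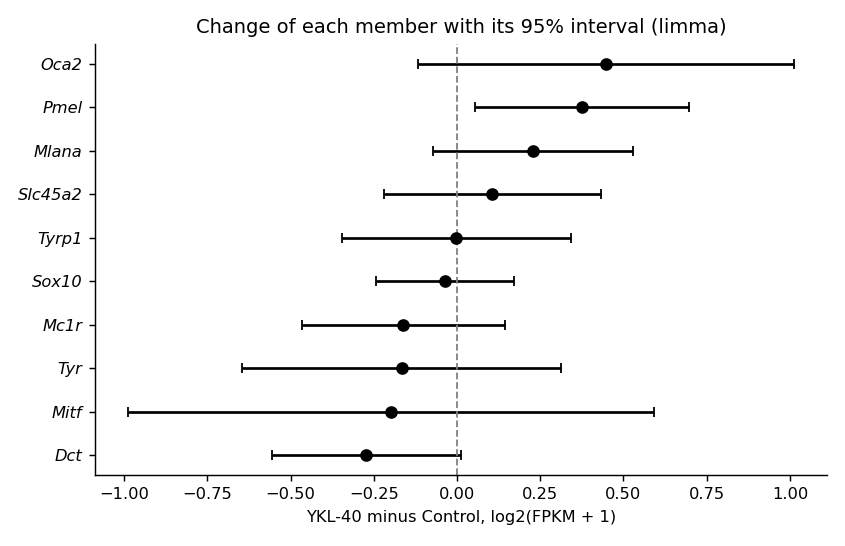
Change of each of the 10 genes (YKL-40 minus control, log2(FPKM + 1), horizontal axis) with its 95% interval from limma, ordered by size. The interval of Pmel, from 0.05 to 0.70, lies above 0 before adjustment for multiple testing, and the other 9 include 0. Mitf has the widest interval and Sox10 the narrowest.

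In order of level, Pmel came first, followed by Dct, Tyr and Tyrp1, then Sox10, Slc45a2, Mlana, Mitf, Mc1r and Oca2. Pmel exceeded Dct, and Dct exceeded Tyr, in all 6 libraries with no overlap of ranges. Tyr and Tyrp1 were not told apart, since Tyr was the higher in 5 of 6 libraries and their ranges overlapped. Tyrp1 was above Sox10 in all 6 libraries without overlap. From Sox10 down, each gene's range overlapped that of the next, and Mlana exceeded Mitf in 3 of 6 libraries. Among all 20938 genes of the table, Pmel ranked 6, 1 and 2 with YKL-40, against 4, 5 and 5 in controls. Dct ranked 9, 7 and 9 with YKL-40, against 7, 7 and 9 in controls. Tyr ranked 22 to 45 with YKL-40, against 15 to 54 in controls.

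Pmel made up 46.3%, 50.1% and 50.2% of the 10 genes' summed FPKM with YKL-40, against 37.9%, 38.1% and 42.5% in controls. Dct made up 26.9%, 25.5% and 23.1% with YKL-40, against 32.0%, 32.2% and 31.1% in controls. The Pmel to Dct ratio was 1.72, 1.97 and 2.18 in YKL-40 libraries, against 1.18, 1.18 and 1.37 in control libraries. The mean ratios were 1.95 ± 0.227 with YKL-40 and 1.24 ± 0.105 in controls (SD, n = 3 each), and the groups did not overlap. Such a ratio within a library does not depend on scaling, and it cannot tell which of the genes differed. This pair was chosen after its values were seen and is given with no test. Of the 45 pairs among the 10 genes, the ratios of 12, or 26.7%, did not overlap between the groups, beside 25.3% of all pairs of tested genes above 0 FPKM in every library. The share among the 10 genes was thus near that of gene pairs at large. Pmel was in 5 of those 12, and 7 were pairs without it.

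**Figure D3:**
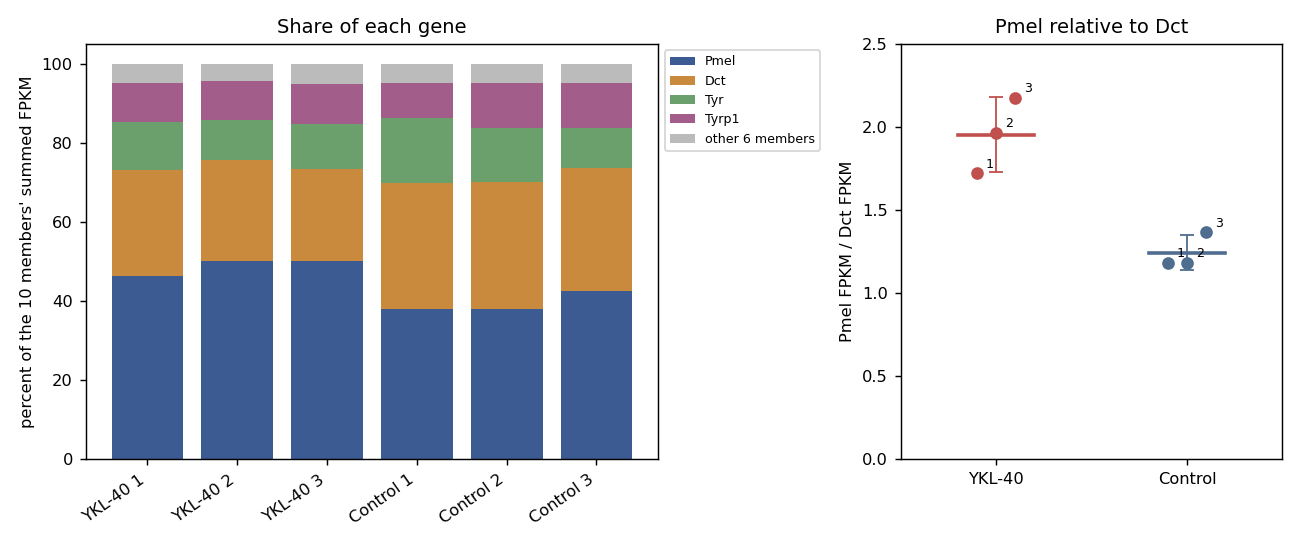
Left, the share of Pmel, Dct, Tyr, Tyrp1 and the other 6 genes in the summed FPKM of the 10 genes (percent) for each library, with YKL-40 on the left. Right, the ratio of Pmel to Dct FPKM per library (points with replicate number, mean and SD), which is 1.72 to 2.18 with YKL-40 and 1.18 to 1.37 in controls.

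No library was highest or lowest throughout. The second YKL-40 library was the highest of the 6 for Pmel, Slc45a2 and Oca2, and the second control for Tyrp1, Dct and Mc1r. The first YKL-40 library was the lowest for Dct, Slc45a2, Mitf and Sox10, and the third control for Tyr, Mlana and Oca2. Averaged over the 10 genes as a log2 deviation from each gene's own mean, the libraries stood at -0.17, 0.09 and 0.12 with YKL-40, against 0.02, 0.12 and -0.19 in controls. Slc45a2 and Sox10 lay closest to the average of the other members, with root mean square distances of 0.097 and 0.113 on the log2 scale, and Mitf lay farthest at 0.420. Outside the 10, the genes of nearest pattern were Dbr1, Micu2, Zfp87, Nqo1 and Rpusd4, at distances of 0.039 to 0.046 over the 6 libraries.

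Other genes of the pigment pathway were looked at in 8 lists that hold 116 further genes, 99 of them tested. Of the 99, 0 passed the adjustment over all genes in limma in either direction. At an unadjusted p under 0.05 there were 12, or 12.1%, beside the 18.0% of all tested genes, with 9 higher and 3 lower. The groups did not overlap for 17 of the 99, or 17.2%, beside 24.4%. Their median change was 0.03.

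Of 12 tested proteins and transporters of the melanosome, 8 had changes above 0, beside 42.2% of all tested genes, with a list median of 0.25. At an unadjusted p under 0.05 in limma there were 4, all higher, or 33.3% beside 18.0%, and 0 passed the adjustment. The groups did not overlap for 4, or 33.3%, beside 24.4%. Gpnmb, a relative of Pmel that macrophages also express, had 1051, 1085 and 1163 FPKM with YKL-40, against 835, 862 and 888 FPKM in controls. Every YKL-40 library was above every control, by a change of 0.35 (limma unadjusted p = 0.00591, adjusted p = 0.126). Slc24a4, a sodium, calcium and potassium exchanger linked to pigmentation, had 2.58 ± 0.420 FPKM with YKL-40 and 1.25 ± 0.579 FPKM in controls (SD, n = 3 each; limma adjusted p = 0.153).

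Among 9 trafficking genes, 3 had an unadjusted p under 0.05 in limma, 2 higher and 1 lower. That was 33.3%, beside 18.0% of all tested genes, and 0 passed the adjustment. The groups did not overlap for 4, or 44.4%, beside 24.4%. The lowest p belonged to Rab17, a small GTPase reported in filopodia and melanosome release of melanocytes. Rab17 had 25.8, 17.0 and 23.4 FPKM with YKL-40, against 12.2, 13.2 and 12.7 FPKM in controls. The groups did not overlap, and the change was 0.73 ± 0.15 (log2, SE; limma adjusted p = 0.0845). It passed without the second YKL-40 library and with array quality weights. Rab38, which carries tyrosinase and Tyrp1 to the melanosome, had 71.7, 81.9 and 92.8 FPKM with YKL-40, against 54.7, 67.2 and 60.7 FPKM in controls (change 0.42, limma adjusted p = 0.158). Mlph, the linker between Rab27a and myosin Va and the most abundant of the list, averaged 339 ± 7.30 FPKM with YKL-40 and 297 ± 16.6 FPKM in controls (SD, n = 3 each; limma adjusted p = 0.296). The lower gene was Rab1a, with 152.8, 158.9 and 160.2 FPKM with YKL-40, against 175.3, 192.8 and 185.8 FPKM in controls (change -0.23, limma unadjusted p = 0.0287, adjusted p = 0.226).

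The next list held 21 genes of melanosome biogenesis, most of them subunits of the BLOC and AP-3 complexes. In limma 0 of the 21 passed, beside 0.436% of all tested genes. At an unadjusted p under 0.05 there were 0, beside 18.0%. The groups overlapped for all 21, where 24.4% of all tested genes did not overlap, and the median change was 0.01. The lowest p belonged to Bloc1s2 (-0.21, limma adjusted p = 0.378) and Ap3m1 (-0.20, limma adjusted p = 0.393). Lyst, the gene of the beige mouse, was the most abundant, at 82.9 ± 25.0 FPKM with YKL-40 and 95.6 ± 4.04 FPKM in controls (SD, n = 3 each). Of 20 genes of the cAMP pathway below Mc1r, 0 had an unadjusted p under 0.05 in limma, beside 18.0% of all tested genes. Their median change was -0.08. The groups did not overlap for 1 of the 20, a higher gene, or 5.0%, beside 24.4%. Gnas, the stimulatory G protein subunit, averaged 629 ± 53.2 FPKM with YKL-40 and 663 ± 3.36 FPKM in controls (SD, n = 3 each). The adenylyl cyclases Adcy6 and Adcy7 had changes of -0.23 and -0.34 (limma adjusted p of 0.382 and 0.424).

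Of 14 other lineage transcription factors, 0 passed in limma. The groups did not overlap for 3, or 21.4%, beside 24.4% of all tested genes. At an unadjusted p under 0.05 there were 2, or 14.3%, beside 18.0%. Sox5, which is known to modulate Sox10 activity in melanocytes, had 7.21, 7.51 and 9.28 FPKM with YKL-40, against 9.38, 13.2 and 11.3 FPKM in controls (change -0.45, limma adjusted p = 0.192). Usf1, another E-box binding factor, had 3.15 ± 0.370 and 2.34 ± 0.058 FPKM (YKL-40 and control; change 0.31, limma adjusted p = 0.239). Zeb2 was the most abundant, at 97.1 ± 24.0 FPKM with YKL-40 and 112.6 ± 31.9 FPKM in controls (SD, n = 3 each). Foxd3 was listed at 0 in all 6 libraries, and Lef1 and Pou3f2 lay below the filter.

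Among 6 tested lineage receptors and ligands, 2 had an unadjusted p under 0.05 in limma, or 33.3%, beside 18.0% of all tested genes. The groups did not overlap for 2, or 33.3%, beside 24.4%, and 0 passed the adjustment. Erbb3, the neuregulin receptor, had 8.98, 6.91 and 6.43 FPKM with YKL-40, against 15.0, 10.6 and 10.0 FPKM in controls. The groups did not overlap, and the change was -0.60 ± 0.18 (log2, SE; limma adjusted p = 0.157). Axl, a receptor kinase known from poorly pigmented melanoma cells and from macrophages, had 7.38, 23.9 and 37.1 FPKM with YKL-40, against 7.82, 7.75 and 8.37 FPKM in controls. Its first YKL-40 library was the lowest of the 6 and the other two were above every control (change 1.15 ± 0.49, limma adjusted p = 0.275). Met was the most abundant, at 653 ± 106 FPKM with YKL-40 and 536 ± 146 FPKM in controls (SD, n = 3 each). Pomc and Ngfr stayed under 1 FPKM in every library.

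Of 17 tested genes reported as Mitf targets outside the 10, some of which other lists hold too, 14 had changes above 0, beside 42.2% of all tested genes, with a list median of 0.19. At an unadjusted p under 0.05 in limma there were 2 of the 17, or 11.8%, beside 18.0%. The groups did not overlap for 6, or 35.3%, beside 24.4%, and 0 passed the adjustment. Besides Gpnmb, Bcl2, the survival gene, had 62.4, 45.2 and 52.5 FPKM with YKL-40, against 35.7, 44.3 and 44.6 FPKM in controls (change 0.35, limma adjusted p = 0.272). Of 10 tested genes of the dedifferentiated melanoma state, 0 passed in limma, with a median change of 0.19. After Axl, Jun had the lowest p, with 27.9 ± 3.13 FPKM with YKL-40 and 18.4 ± 7.75 FPKM in controls (SD, n = 3 each; limma adjusted p = 0.283). Fn1, which fibroblasts also express, had 173 ± 48.9 and 151 ± 120 FPKM (YKL-40 and control).

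**Figure D4:**
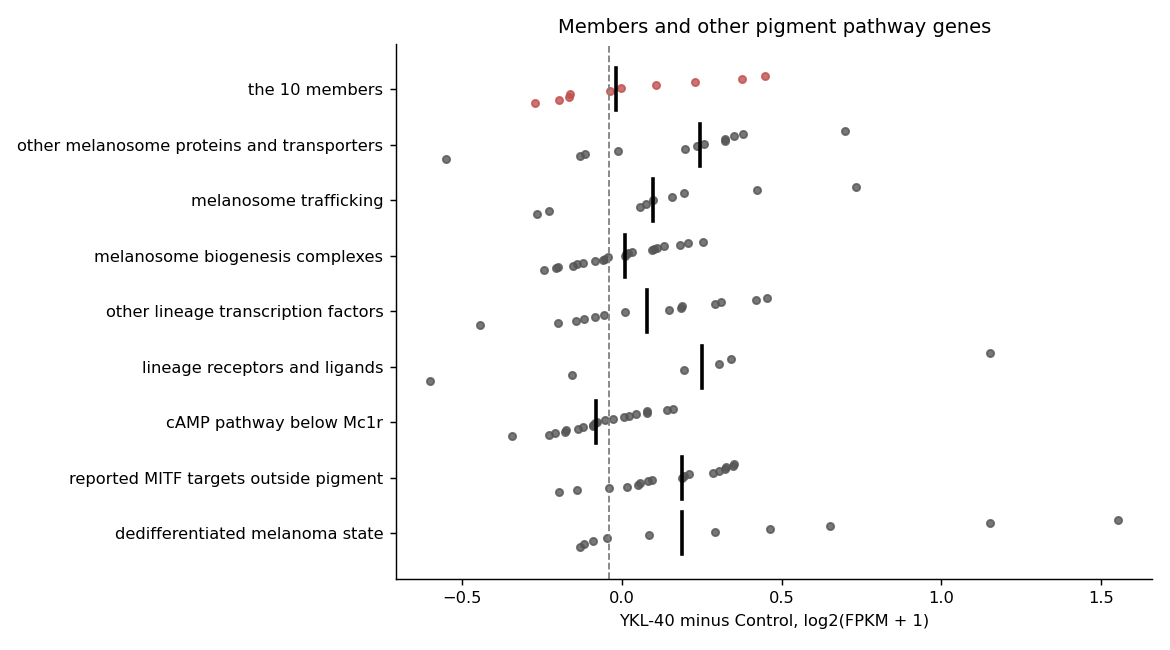
Change of every tested gene (YKL-40 minus control, log2(FPKM + 1), horizontal axis) in the 10 members (top row) and 8 further lists. Black ticks are list medians, and the dashed line is the median of all tested genes at -0.04. List medians run from -0.08 for the cAMP pathway to 0.25.

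The tumours were whole tissue, so fewer cells of a type and less RNA per cell cannot be told apart. Markers of some other cell types moved with the groups, and those of others overlapped. The summed FPKM of 10 macrophage markers was 312 to 455 with YKL-40 and 88.0 to 283 in controls, with all 10 changes above 0. Lyz2, the most abundant of these, had 113.1, 127.9 and 126.6 FPKM with YKL-40, against 31.0, 60.9 and 126.7 FPKM in controls, which overlapped. The sum of 10 T and NK cell markers was 9.44 to 34.2 with YKL-40 and 0.462 to 1.52 in controls, with 4 of 4 tested genes above 0 and Gzmb its most abundant. The sum of 14 skeletal muscle markers was 4.74 to 28.8 with YKL-40 and 44.3 to 184 in controls, with 10 of 10 tested genes below 0 and Tnnt3 its most abundant. The sum of 8 fibroblast markers was 255 to 446 with YKL-40 and 49.8 to 287 in controls. These sums overlapped, with 7 changes above 0 and 1 below. Col3a1, the most abundant fibroblast marker, had 122.7, 68.6 and 142.8 FPKM with YKL-40, against 9.41, 24.7 and 73.7 FPKM in controls, which also overlapped. Of these lists none but the T and NK list had genes past the threshold, 2 of its 4 tested genes, beside 0.436% of all tested genes. Of 8 keratinocyte markers, with Krt10 the most abundant, 5 were at 0 in all 6 libraries, and the sum did not exceed 0.119 FPKM.

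With the macrophage or the skeletal muscle level as a covariate, 0 of the 10 genes passed in limma. These fits called 0 of all tested genes, so that count says nothing particular to the 10. The marker sums of both lists did not overlap between the groups, so these fits cannot separate marker level from group. At an unadjusted p under 0.05 the macrophage fit held 2 of the 10, beside 697 of all 11241 genes. The muscle fit held 0, beside 514. The 2 were Mlana (change 0.52, limma unadjusted p = 0.0233) and Oca2 (limma unadjusted p = 0.0349). The change of Pmel was 0.27 and 0.44 in these fits, and that of Dct -0.14 and -0.32. The change of Oca2 was 0.91 with the macrophage level and 0.01 with the muscle level. Scaled to Sox10 in each library, an alternative chosen after the data were seen, Pmel stood at 39.4, 48.8 and 45.1 times Sox10 with YKL-40, against 30.9, 35.1 and 33.8 times in controls. Dct stood at 22.9, 24.8 and 20.7 times with YKL-40, against 26.1, 29.7 and 24.7 times in controls. The ratios of Pmel did not overlap and those of Dct did.

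**Figure D5:**
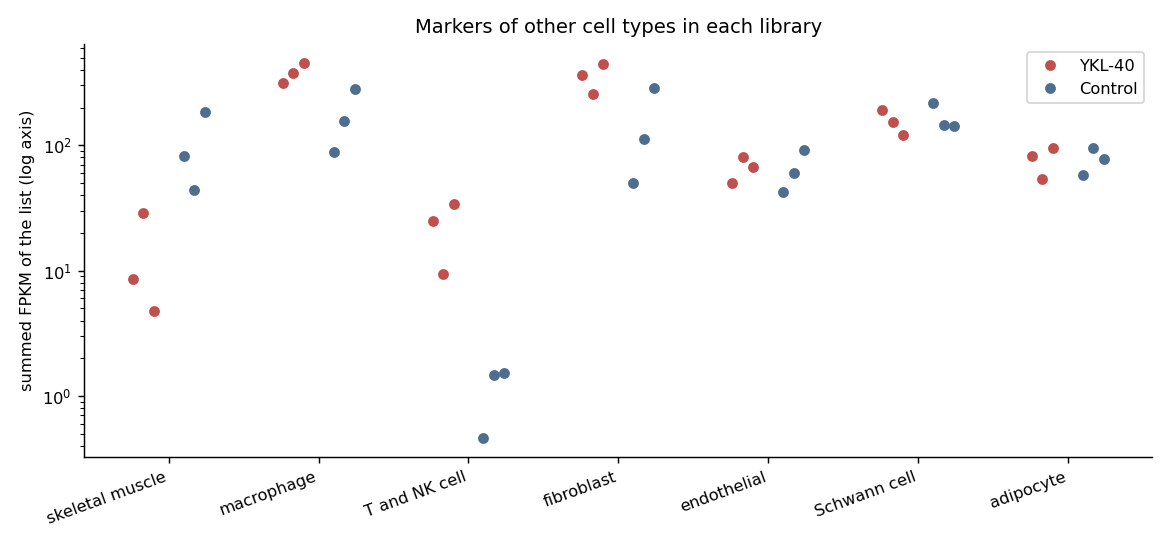
Summed FPKM of marker lists of other cell types in each library (vertical log axis), with YKL-40 left and control right within each cell type. Macrophage and T and NK cell sums are higher and skeletal muscle sums lower in all 3 YKL-40 libraries, and the other lists overlap. Keratinocyte markers, at or near 0, are not drawn.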

How the data were processed

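The deposited table holds 1 FPKM value per gene and library, made by the authors, for 6 libraries. Build mm10 and the tools HISAT2, StringTie, bcl2fastq 2.0, DESeq2 and limma appear in the submitters' processing notes, with no roles. The annotation and the combining of transcripts into genes are not given in the sources used here. Per the labels' protocols, libraries came from 2 µg of RNA with the TruSeq v2 kit.

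Genes averaging 1 FPKM or more were tested on log2(FPKM + 1), which understates changes of low genes, with limma 3.58.1 in R 4.3.3 (variance trend, two-sided, Benjamini-Hochberg over all tested genes, 0.05). The depth of each library was estimated from the most common ratio to the first control among genes under 0.3 FPKM in every library. In 5 simulated runs of 11241 genes for this comparison, the test recovered 75.6% of genes with a true log2 change of 1 and 95% where it was 2, with 5.22% false calls. The simulated noise was independent between genes, and both changes were larger than that of any of the 10 genes, at most 0.45. Recovery of changes that small, or with spread shared between genes, was not simulated.

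The members and lists were chosen with earlier results of these data known. The text names all 10 members, Chil1, the 2 genes of lowest p (or those past the threshold) and the most abundant gene of each pathway list, the most abundant gene of each marker list and the 5 genes of nearest pattern. Other genes named (Cdk2, Dgka, Rab1a, Rab27a, genes of low or no signal) were chosen after their values were seen. Positions came from RefSeq on GRCm38.p6, where all 10 symbols matched, and overlaps from GENCODE M21.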

Additional observations from a re-analysis of the deposited data

How the results depend on the processing

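Of 18 alternative fits, 17 called 0 of the 10 genes and 1, with array quality weights, called Pmel, so 1 of 10. The count for the other pathway lists was 5 with array quality weights (Axl, Erbb3, Gpnmb, Rab17 and Rab38), and 0 to 1 when each library was left out in turn. Over all tested genes the count of 49 became 1111 with array quality weights, 1 without a filter, and 0 with the macrophage or the skeletal muscle covariate (697 and 514 at an unadjusted p under 0.05 in limma). It was 0 to 238 when each library was left out. With the replicate number as a block it was 120, with 0 of the 10 genes. Same-numbered libraries did not deviate together (correlations of -0.08, -0.19 and 0.0017), and none correlated best with its own number. With 3 libraries per group this cannot tell whether the numbers paired the samples. The signs of Pmel, Dct, Slc45a2, Oca2 and Mc1r held in every alternative. Their sizes did not: with 1 library left out they ran from 0.29 to 0.51 for Pmel, -0.35 to -0.21 for Dct, 0.0017 (without the second YKL-40 library) to 0.25 for Slc45a2, 0.18 to 0.61 for Oca2 and -0.24 to -0.053 (without the third YKL-40 library) for Mc1r. An unadjusted limma p under 0.05 was then also reached by Tyr, Dct, Slc45a2 and Mitf (lowest p of 0.0178, 0.0400, 0.0458 and 0.0301). Tyr was 0.36 with the macrophage covariate and -0.41 to 0.0026 with 1 library left out. Tyrp1 was 0.023 with median of ratios scaling, 0.034 at the same Sox10 level and -0.12 to 0.12 with 1 library left out. Mlana was -0.13 with the muscle covariate and 0.10 to 0.30 with 1 library left out. Mitf was 0.14 and Sox10 0.021 with array quality weights, and with 1 library left out they ran from -0.59 to 0.16 and from -0.072 to 0.012. The causes were not tested. Without read totals no counting interval could be given.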

Other observations

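Some genes known from Schwann cells, which share a neural crest origin with melanocytes, were well expressed, while others were near 0. Mbp, the most abundant of 8 such genes, had 127, 103 and 70.2 FPKM in YKL-40 libraries and 145, 91.8 and 97.1 FPKM in control libraries. Gfra3 was at 0 in all 6 libraries. The list summed to 122 to 190 FPKM with YKL-40 and 143 to 217 FPKM in controls, which overlapped. Fabp4, a fatty acid carrier of adipocytes, macrophages and endothelium, had 72.6 ± 17.2 FPKM with YKL-40 and 75.2 ± 16.7 FPKM in controls (SD, n = 3 each). The endothelial list, led by Pecam1, summed to 50.05 to 80.9 FPKM with YKL-40 and 42.6 to 92.4 FPKM in controls.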
